A study of Mus musculus with 15 samples.

Results

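The liver turns cholesterol into bile acids. 10 genes of that route were followed here in mouse liver: 8 enzymes (Cyp7a1, Cyp7b1, Cyp8b1, Cyp27a1, Cyp2c70, Akr1d1, Hsd3b7 and Baat), the bile acid receptor FXR, encoded by Nr1h4, and its target SHP, encoded by Nr0b2. The 10 genes were chosen by name for their roles in the pathway, with earlier results of these data known. All 10 were found among the 15302 genes of the count table, and all 10 passed the filter on low counts that left 12274 genes for testing.

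Liver RNA of wild-type mice was sequenced in 15 libraries, 5 in each of 3 groups. All mice ate a MASH diet, which induces steatohepatitis with fat and inflammation in the liver, from 8 weeks of age, at about 29 °C, and were housed singly for the treatment. The GDF15 group had subcutaneous recombinant GDF15, a hormone that lowers food intake, at 1 nmol/kg each morning. The PairFed group was offered, each day, what the GDF15 group had eaten on the previous day, and the Vehicle group was the control. No lean or standard-diet liver was among the groups, so all levels are those of a liver on the MASH diet. The time from the last injection or meal to tissue collection is not given in the sources used here.

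Bile acid synthesis has a classic route, which starts with Cyp7a1, the rate-limiting cholesterol hydroxylase, and an alternative route, which starts with the mitochondrial sterol hydroxylase Cyp27a1 and goes on through Cyp7b1. Hsd3b7 and Akr1d1 then modify the steroid ring, Cyp8b1 directs the product towards cholic acid, Cyp27a1 also oxidises the side chain, Cyp2c70 makes the muricholic acids found in mice, and Baat joins the acids to taurine or glycine. Bile acids bind FXR, which induces SHP in the liver, and SHP and intestinal FGF15 repress Cyp7a1 and Cyp8b1; Cyp7a1 also varies with feeding and the time of day.

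Library totals ran from 8551557 to 12994187 counts: 9228127 to 12994187 in Vehicle, 8551557 to 10914914 in GDF15 and 10133289 to 12933324 in PairFed. The 5 libraries above the widest gap in depth, which lies between 10914914 and 12137462, were 1 Vehicle library and 4 PairFed libraries, so depth and group are partly tied. The livers carried hepatocyte markers at a summed 114200 to 156500 CPM (a gene's count relative to its library's total, after TMM scaling of the totals). Of 12 intestine, pancreas and gall bladder markers, 7 were not in the table. The 3 tested summed to 157 to 237 CPM. Before TMM scaling their means were 125 CPM for Fabp2, 58.5 for Slc10a2, which is also among the bile duct markers, and 9.60 for Cela1. Lct and Vil1 fell below the filter, at means of 0.031 and 0.36 CPM. In whole-liver RNA, fewer cells of a type and less RNA per cell cannot be told apart. Libraries are numbered within a group by their order in the table.

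The promoters of the genes that rose are shown with that of Cyp8b1, which did not pass the test, to set the letters ahead of their start sites side by side. Promoter sequences were matched by symbol for 7 of the 10 genes in the RefSeq table of build GRCm38.p6. Each line gives the 250 bases ahead of the first RefSeq start site listed for the symbol, 5′ to 3′ on the gene's own strand. The Nr1h4 window (chr10:89506659-89506908) lies wholly inside the gene as annotated by GENCODE (chr10:89454234-89533585), so it belongs to an internal start. The windows of Cyp2c70 and Hsd3b7 end inside their GENCODE genes, and the marked TTTATA of Cyp2c70 lies there. Capitals mark matches, on either strand, to AGGTCA (the nuclear receptor half-site, read as TGACCT on the other strand), CAAAGTCCA (a site of the form bound by HNF4A) or TATAAA (the TATA box, read as TTTATA on the other strand). These motifs were picked after the sequences had been seen.

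Cyp27a1, chr1:74713285-74713534, plus strand: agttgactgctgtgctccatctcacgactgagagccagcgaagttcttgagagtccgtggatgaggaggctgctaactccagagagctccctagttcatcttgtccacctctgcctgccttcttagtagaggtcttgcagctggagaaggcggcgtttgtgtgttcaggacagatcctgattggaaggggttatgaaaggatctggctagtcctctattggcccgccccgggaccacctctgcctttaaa

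Cyp2c70, chr19:40187287-40187536, minus strand: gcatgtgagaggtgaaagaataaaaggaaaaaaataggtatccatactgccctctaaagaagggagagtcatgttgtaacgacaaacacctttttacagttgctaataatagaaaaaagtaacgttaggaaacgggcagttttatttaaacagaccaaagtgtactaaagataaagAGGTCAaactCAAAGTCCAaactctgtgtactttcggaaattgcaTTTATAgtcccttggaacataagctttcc

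Akr1d1, chr6:37529923-37530172, plus strand: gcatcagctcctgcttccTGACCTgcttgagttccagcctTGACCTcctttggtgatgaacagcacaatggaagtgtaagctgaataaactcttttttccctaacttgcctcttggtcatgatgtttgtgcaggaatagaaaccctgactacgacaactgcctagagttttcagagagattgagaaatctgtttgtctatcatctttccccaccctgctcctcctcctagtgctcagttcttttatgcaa

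Cyp8b1, chr9:121916306-121916555, minus strand: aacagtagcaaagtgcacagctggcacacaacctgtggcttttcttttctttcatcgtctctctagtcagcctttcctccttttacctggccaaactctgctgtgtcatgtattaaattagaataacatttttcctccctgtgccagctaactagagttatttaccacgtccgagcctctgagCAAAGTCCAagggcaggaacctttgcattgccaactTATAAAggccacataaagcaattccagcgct

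CAAAGTCCA stood at 64 to 56 bases before the start of Cyp2c70 and at 67 to 59 bases before the start of Cyp8b1, and 0.381% of the 27025 promoters of the same length held it. AGGTCA was present in Cyp2c70, in Nr1h4 and at 2 places in Akr1d1, against 13.8% of all promoters. TATAAA was present in Cyp2c70, Cyp8b1 and Nr0b2, against 13.0% of all promoters. CACGTG, the E-box, was present in Nr0b2 alone of the 7 and in 6.05% of all promoters. Neither AAGGTCA, the longer half-site bound by LRH-1, which contains AGGTCA, nor TGTTCT, a half-site of the glucocorticoid receptor, was found in the 7 windows, against 4.05% and 16.2% of all promoters. None of these 6 motifs was in the windows of Cyp27a1 and Hsd3b7. A match is a description of letters in a window, not a binding site.

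GDF15 vs Vehicle asks what the hormone did in all, lower food intake included. 3 of the 10 genes rose: Cyp27a1, Cyp2c70 and Akr1d1. None fell, and the rate-limiting Cyp7a1, the cholic acid enzyme Cyp8b1, FXR and SHP did not pass the test. Over all tested genes, 2.02% rose and 0.88% fell (edgeR quasi-likelihood test, Benjamini-Hochberg adjusted p below 0.05). The median log2 fold change of the 10 genes was 0.10, against -0.0046 over all tested genes. The groups did not overlap for 2 of the 10 genes, Cyp27a1 and Cyp2c70, and for 3.99% of all tested genes.

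**Figure D1:**
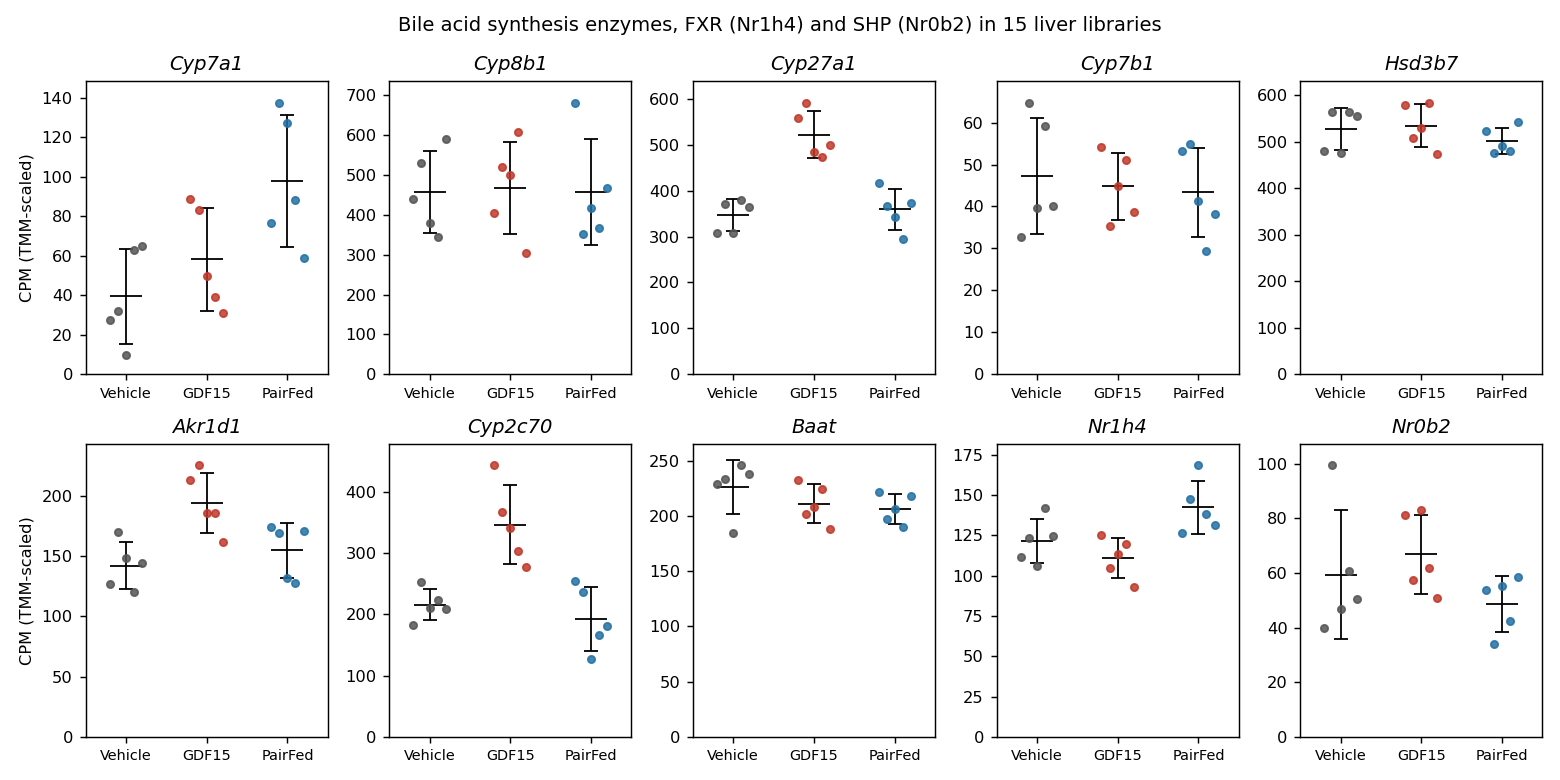
Levels of the 10 genes in each of the 15 libraries, in TMM-scaled CPM on axes that start at 0; each point is a library, horizontal lines are group means and bars are SD (n = 5). All 5 GDF15 points of Cyp27a1 and of Cyp2c70 lie above all points of both other groups, and the GDF15 points of Nr1h4 lie below all PairFed points.

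PairFed vs Vehicle asks what eating less did without the hormone. None of the 10 genes passed the test, and none separated the groups without overlap. Over all tested genes, 0.147% rose, 0.139% fell and 3.92% did not overlap. The median of the 10 genes was -0.036. The smallest edgeR p-values before adjustment were 0.0149 for Cyp7a1 and 0.0258 for Nr1h4, with adjusted p = 0.183 and 0.224. DESeq2 and limma-voom also called 0 of the 10 after adjustment.

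GDF15 vs PairFed asks what GDF15 added at matched food intake. Cyp27a1 and Cyp2c70 rose here too, and none fell. Over all tested genes, 0.562% rose, 0.22% fell and 2.86% did not overlap. The groups were apart for 3 of the 10 genes: Cyp27a1 and Cyp2c70 were higher and Nr1h4 was lower in GDF15. The median of the 10 genes was 0.070. The comparisons of GDF15 and of PairFed with Vehicle share the Vehicle libraries, and GDF15 vs PairFed is the test of the difference between them.

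**Figure D2:**
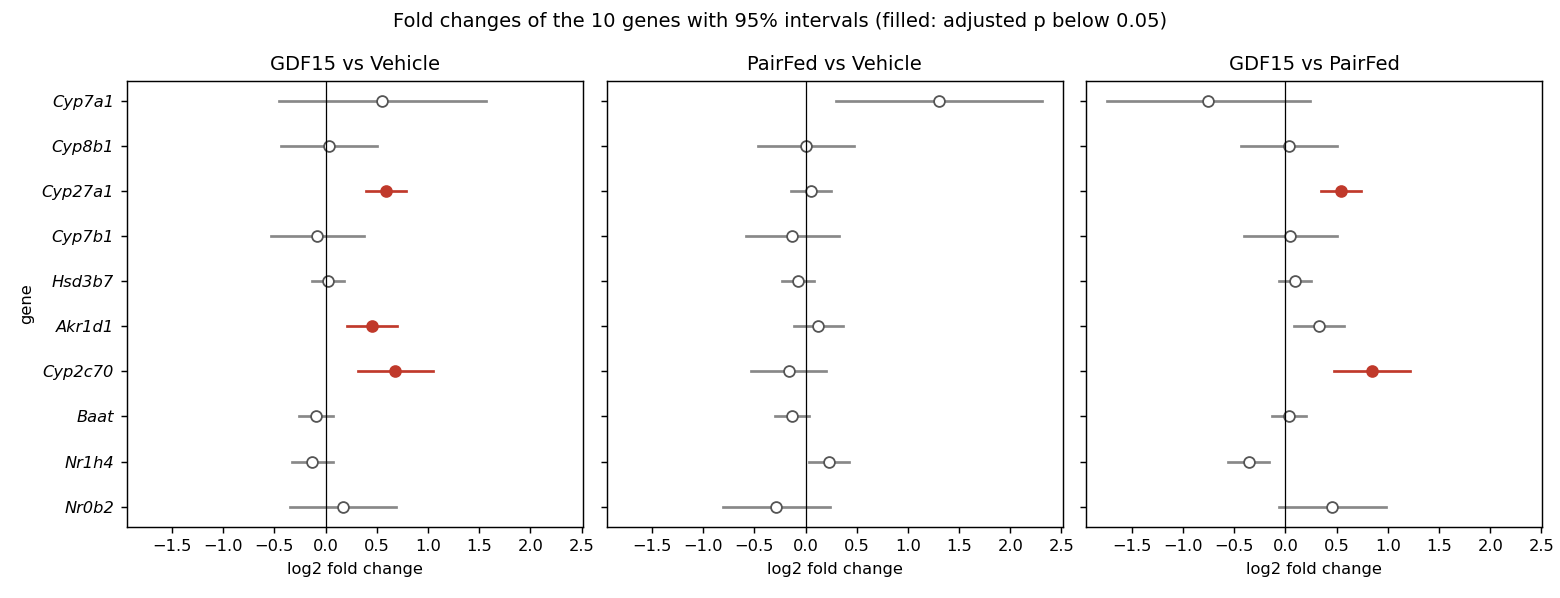
Log2 fold changes of the 10 genes in the 3 comparisons, with 95% intervals from the edgeR fit; filled points have an adjusted p below 0.05. Cyp27a1 and Cyp2c70 are filled in both comparisons that involve GDF15, Akr1d1 in GDF15 vs Vehicle only, and no gene is filled in PairFed vs Vehicle.

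Cyp27a1, the sterol hydroxylase that opens the alternative route and oxidises the side chain in both routes, was the member with the smallest p-value. Its level was 308, 309, 364, 371 and 379 CPM in Vehicle, 473, 485, 499.7, 560 and 592 CPM in GDF15 and 295, 343, 367, 374 and 417 CPM in PairFed. Every GDF15 library was above every library of both other groups, while Vehicle and PairFed overlapped. The mean was 522 ± 51.4 CPM (SD, n = 5) in GDF15 against 346 ± 35.0 in Vehicle and 359 ± 44.7 in PairFed. Relative to Vehicle it rose by 0.59 ± 0.09 (SE) on the log2 scale, or 1.51-fold (adjusted p = 0.00228 by edgeR). Relative to PairFed it rose by 0.54 ± 0.09, or 1.45-fold (adjusted p = 0.0114 by edgeR). PairFed differed from Vehicle by 0.05 ± 0.09 with an interval from -0.14 to 0.25 (adjusted p = 0.809 by edgeR). Both calls held with each library left out in turn. With a term for the 5 deeper libraries the difference from PairFed was 0.50 (adjusted p = 0.240), and that from Vehicle was 0.58 (adjusted p = 0.00368).

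Cyp2c70, the cytochrome P450 that makes muricholic acids, had the largest log2 change of the 3 genes. Its level was 183, 209, 210.4, 224 and 253 CPM in Vehicle, 277, 304, 341, 368 and 443 CPM in GDF15 and 127, 166, 180.2, 236 and 254 CPM in PairFed. The GDF15 libraries were again all above the others, and PairFed spread to both sides of Vehicle. Cyp2c70 rose by 0.68 ± 0.17 on the log2 scale relative to Vehicle, or 1.60-fold (adjusted p = 0.0488 by edgeR). Relative to PairFed it rose by 0.85 ± 0.17, or 1.80-fold (adjusted p = 0.0387 by edgeR). The PairFed value against Vehicle was -0.17 ± 0.17 with an interval from -0.53 to 0.20 (adjusted p = 0.664 by edgeR). Cyp2c70 belongs to the Cyp2c family, whose members are alike in sequence, so the split of reads among them is uncertain. Its call against Vehicle held only without GDF15 5 (adjusted p = 0.0394); without any other single library of the 2 groups the adjusted p was 0.0511 to 0.128. That call was also lost with the depth term (0.63, adjusted p = 0.0751), with limma-voom (adjusted p = 0.0589) and with no filter on low counts (adjusted p = 0.0690 by edgeR). Against PairFed it was lost without GDF15 1, GDF15 2, GDF15 3, PairFed 4 or PairFed 5 (adjusted p = 0.0569 to 0.125) and with the depth term (0.68, adjusted p = 0.444). No filter on low counts and the 2 groups alone also lost it (adjusted p = 0.056 and 0.095 by edgeR).

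Akr1d1, the reductase that saturates the steroid ring in both routes, was 120.3, 127, 144, 149 and 170.1 CPM in Vehicle and 162, 186, 186, 213 and 225 CPM in GDF15. It was 128, 132, 170, 171 and 175 CPM in PairFed. The lowest GDF15 library lay below the highest Vehicle library, and the other 4 were above it. Akr1d1 rose by 0.45 ± 0.11 on the log2 scale relative to Vehicle, or 1.37-fold (adjusted p = 0.0427 by edgeR). Relative to PairFed the value was 0.33 ± 0.11 with an interval from 0.09 to 0.57 (adjusted p = 0.210 by edgeR), so a difference at matched food intake was not called. PairFed against Vehicle was 0.13 ± 0.11 (adjusted p = 0.610 by edgeR). The call against Vehicle was lost without Vehicle 1, 3, 4 or 5 or without GDF15 1, 2 or 4 (adjusted p = 0.0668 to 0.132). With the depth term the value was 0.41 (adjusted p = 0.0541). No filter on low counts and the shallower libraries alone also lost the call (adjusted p = 0.0524 and 0.0852 by edgeR).

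Further lists differed in the same comparisons. Of 20 glucocorticoid-induced genes, 12 rose and none fell in GDF15 vs Vehicle, with a median of 1.31. In GDF15 vs PairFed 6 rose and none fell, with a median of 0.68. None passed in PairFed vs Vehicle, where the median was 0.42. There 18 of the 20 were positive, against 6121 of all 12274 tested genes. The summed level of the 20 was 7908 to 18010 CPM in GDF15, 6537 to 11820 in PairFed and 4327 to 8088 in Vehicle. Over all tested genes, 2.02% rose and 0.88% fell in GDF15 vs Vehicle, and 0.562% and 0.22% in GDF15 vs PairFed. Fkbp5, a standard glucocorticoid-induced gene, rose by 1.69 ± 0.16 and by 1.37 ± 0.16 on the log2 scale (adjusted p = 6.95e-05 and 0.000652 by edgeR). Of 12 periportal hepatocyte markers, 5 rose and none fell in GDF15 vs Vehicle (median 0.61). In GDF15 vs PairFed 2 rose and none fell (median 0.30), and none passed in PairFed vs Vehicle (median 0.26). The summed level of the 12 was 8969 to 14070 CPM in GDF15, 8038 to 11250 in PairFed and 5896 to 8172 in Vehicle. Pck1 and Ass1 had the highest means of the 12, at 2951 and 2689 CPM before TMM scaling. Of 14 pericentral markers none passed in GDF15 vs Vehicle (median 0.20). They summed to 10150 to 14640 CPM in GDF15, 10250 to 12430 in PairFed and 7842 to 12850 in Vehicle. The part of the glucocorticoid-induced and periportal genes in the results was not tested.

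Immediate-early genes are switched on very quickly by stimuli, tissue handling among them. They had 0 of 21 called by edgeR and a median of 0.95 in GDF15 vs Vehicle, where 2.02% of all tested genes rose. Their score, the mean log2 CPM, was 3.94 to 5.25 in GDF15, 4.13 to 4.91 in PairFed and 3.65 to 4.34 in Vehicle. With that score as a covariate, Cyp27a1 was 0.37 higher in GDF15 than in Vehicle (adjusted p = 0.219 by edgeR), Cyp2c70 was 0.40 (adjusted p = 0.842) and Akr1d1 was 0.24 (adjusted p = 0.893), so none of the 3 passed. Against PairFed the same covariate left Cyp27a1 at 0.45 (adjusted p = 0.0113) and Cyp2c70 at 0.75 (adjusted p = 0.0513).

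Cyp7a1, which opens the classic route, had the widest spread among libraries. Its level was 9.67, 27.4, 32.0, 63.0 and 64.8 CPM in Vehicle, 30.8, 38.9, 49.7, 82.9 and 88.7 CPM in GDF15 and 58.9, 76.5, 88.3, 127 and 137 CPM in PairFed. Vehicle 3 was the lowest of the 15 libraries, the PairFed values were the highest on the whole, and each pair of groups overlapped. The mean was 39.4 ± 23.9 CPM in Vehicle, 58.2 ± 26.2 in GDF15 and 97.6 ± 33.5 in PairFed (SD, n = 5). PairFed differed from Vehicle by 1.31 ± 0.46 on the log2 scale, with an interval from 0.30 to 2.31, which did not pass after adjustment (adjusted p = 0.183 by edgeR). GDF15 differed from Vehicle by 0.55 ± 0.47, with an interval from -0.46 to 1.56 (adjusted p = 0.605 by edgeR). GDF15 differed from PairFed by -0.75 ± 0.46, with an interval from -1.74 to 0.24 (adjusted p = 0.513 by edgeR). With the depth term the PairFed value against Vehicle was 0.95 and the GDF15 value against PairFed was -0.21. Of 19 clock genes, which set daily rhythms, 3 rose in GDF15 vs Vehicle, where 2.02% of all tested genes rose. None of the 19 passed in PairFed vs Vehicle, and 1 fell in GDF15 vs PairFed, where 0.22% of all tested genes fell. The summed level of the clock genes was 658 to 1121 CPM in Vehicle, 943 to 1301 in GDF15 and 1083 to 1321 in PairFed. Its part in the Cyp7a1 levels was not tested.

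None of the remaining enzymes passed in any comparison, and the intervals of Cyp8b1 and Cyp7b1 were wide. Cyp8b1, which directs synthesis to cholic acid, was 345, 381, 439, 530 and 591 CPM in Vehicle, 303, 405, 500.1, 520 and 608 CPM in GDF15 and 353, 367, 418, 467 and 682 CPM in PairFed. The 3 ranges lay over each other, with means of 457 ± 102, 467 ± 117 and 457 ± 133 CPM. The GDF15 value against Vehicle was 0.03 ± 0.22 on the log2 scale, and its interval from -0.44 to 0.50 holds changes of either sign (adjusted p = 0.963 by edgeR). Cyp7b1, which follows Cyp27a1 in the alternative route, ran from 32.8 to 64.8 CPM in Vehicle, 35.3 to 54.3 in GDF15 and 29.5 to 54.8 in PairFed. Its value in GDF15 vs Vehicle was -0.08 ± 0.21, with an interval from -0.54 to 0.38 (adjusted p = 0.896 by edgeR). Cyp27a1 and Cyp7b1 are successive steps, and in these livers the first rose and the second did not pass the test.

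Hsd3b7, the dehydrogenase that acts early in both routes, was held within 474 to 584 CPM in all 15 libraries, and its intervals were narrow: -0.14 to 0.17 in GDF15 vs Vehicle and -0.23 to 0.08 in PairFed vs Vehicle. Part of its exons is shared with Gm49388 on the same strand and with 9430064I24Rik on the other, so reads of these genes may be split among them. Baat, the conjugating enzyme, ran from 184 to 246 CPM in Vehicle, 188 to 233 in GDF15 and 190 to 222 in PairFed. Its intervals were -0.27 to 0.07 in GDF15 vs Vehicle and -0.30 to 0.04 in PairFed vs Vehicle.

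FXR itself, Nr1h4, was 106, 112, 123, 125 and 142 CPM in Vehicle, 93.2, 104, 113, 119 and 125 CPM in GDF15 and 126, 132, 138, 148 and 168 CPM in PairFed. All GDF15 libraries lay below all PairFed libraries, by a narrow gap, and Vehicle lay between and overlapped both. The value in GDF15 vs PairFed was -0.36 ± 0.09 on the log2 scale, with an interval from -0.56 to -0.16, and did not pass after adjustment (adjusted p = 0.0897 by edgeR). DESeq2's Wald test called it (adjusted p = 0.0263), and with the depth term the value was -0.16 (adjusted p = 0.745 by edgeR). The value was 0.23 ± 0.09 in PairFed vs Vehicle (adjusted p = 0.224 by edgeR) and -0.13 ± 0.09 in GDF15 vs Vehicle (adjusted p = 0.527 by edgeR).

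SHP, Nr0b2, the repressor that FXR induces, was 39.8, 46.8, 50.4, 60.7 and 99.4 CPM in Vehicle, 50.8, 57.6, 62.0, 81.4 and 83.0 CPM in GDF15 and 34.2, 42.3, 53.7, 55.4 and 58.7 CPM in PairFed. One library, Vehicle 2, held the highest value of all, and the groups overlapped. Its value was 0.17 ± 0.24 in GDF15 vs Vehicle, -0.28 ± 0.24 in PairFed vs Vehicle and 0.46 ± 0.24 in GDF15 vs PairFed (adjusted p = 0.786, 0.582 and 0.443 by edgeR). Of 12 other genes that FXR induces, none passed in any comparison, with medians of 0.20, 0.03 and 0.22 in the same order. A list of this size would often hold no call at the shares called over all tested genes. Values were positive for 9, 7 and 9 of the 12, against 5997, 6121 and 6160 of all 12274 tested genes. In GDF15 vs Vehicle the 3 negative values of the 12 were Osgin1 at -1.26, Apoc2 at -0.12 and Abcb4 at -0.10. In that comparison the median of 13 hepatocyte markers was 0.21, with 11 positive. That of 16 bile acid and sterol transporters was 0.18, with 10 positive. Abcb11, the bile salt export pump and a standard FXR target, was 398 to 490.2 CPM in Vehicle, 517 to 582 in GDF15 and 338 to 498 in PairFed, so that GDF15 lay above both other groups. Its log2 value was 0.25 ± 0.09 against Vehicle (adjusted p = 0.142 by edgeR) and 0.35 ± 0.09 against PairFed (adjusted p = 0.0800 by edgeR; 0.0167 by DESeq2).

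Per length of transcript, Hsd3b7, Cyp8b1 and Cyp27a1 were the 3 most abundant of the 10 messages. In Vehicle their means were 289 ± 25.1, 234 ± 52.5 and 183 ± 18.5 CPM per kb (SD, n = 5), followed by Cyp2c70 at 126 ± 14.8 and Baat at 116 ± 12.4. Nr1h4 at 60.3 ± 6.78, Akr1d1 at 52.6 ± 7.29 and Nr0b2 at 52.5 ± 20.9 CPM per kb were next, and these 3 did not differ beyond their spread. Cyp7b1 at 21.8 ± 6.41 and Cyp7a1 at 9.43 ± 5.73 CPM per kb were the lowest. In GDF15, Cyp27a1 was at 276 ± 27.2 CPM per kb, ahead of Cyp8b1 at 240 ± 59.8, although their ranges overlapped, and Cyp2c70 was at 202 ± 37.4. In PairFed, Cyp7a1 at 23.4 ± 8.02 CPM per kb was at the level of Cyp7b1 at 20.0 ± 4.92. Hsd3b7 moved from first to second or a lower place when all annotated exon bases were counted as its length, a setting added after the data had been seen.

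Ratios of 2 genes within a library need no scaling between libraries. The log2 ratio of Cyp7a1 to Cyp7b1 counts was -0.50 ± 1.05 in Vehicle, 0.27 ± 0.69 in GDF15 and 1.14 ± 0.53 in PairFed (SD, n = 5). PairFed differed from Vehicle by 1.64 (two-sided exact permutation test, p = 0.0238, adjusted p = 0.0762 over 12 tests). Cyp27a1 to Cyp7a1 was 3.42 ± 1.00 in Vehicle, 3.28 ± 0.56 in GDF15 and 1.94 ± 0.58 in PairFed, with GDF15 1.34 above PairFed (exact p = 0.0159, adjusted p = 0.0762). Cyp8b1 to Cyp7a1 was 3.80 ± 1.06, 3.09 ± 0.68 and 2.26 ± 0.79, with PairFed against Vehicle at -1.54 (exact p = 0.0318, adjusted p = 0.0762). Cyp2c70 to Cyp8b1, the muricholic against the cholic acid step, was -1.06 ± 0.34, -0.41 ± 0.43 and -1.25 ± 0.43, with GDF15 0.84 above PairFed (exact p = 0.0159, adjusted p = 0.0762) and 0.65 above Vehicle (exact p = 0.0397, adjusted p = 0.0794). None of the 12 passed an adjusted p of 0.05, and the smallest p that 252 splits allow is 0.00794.

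**Figure D3:**
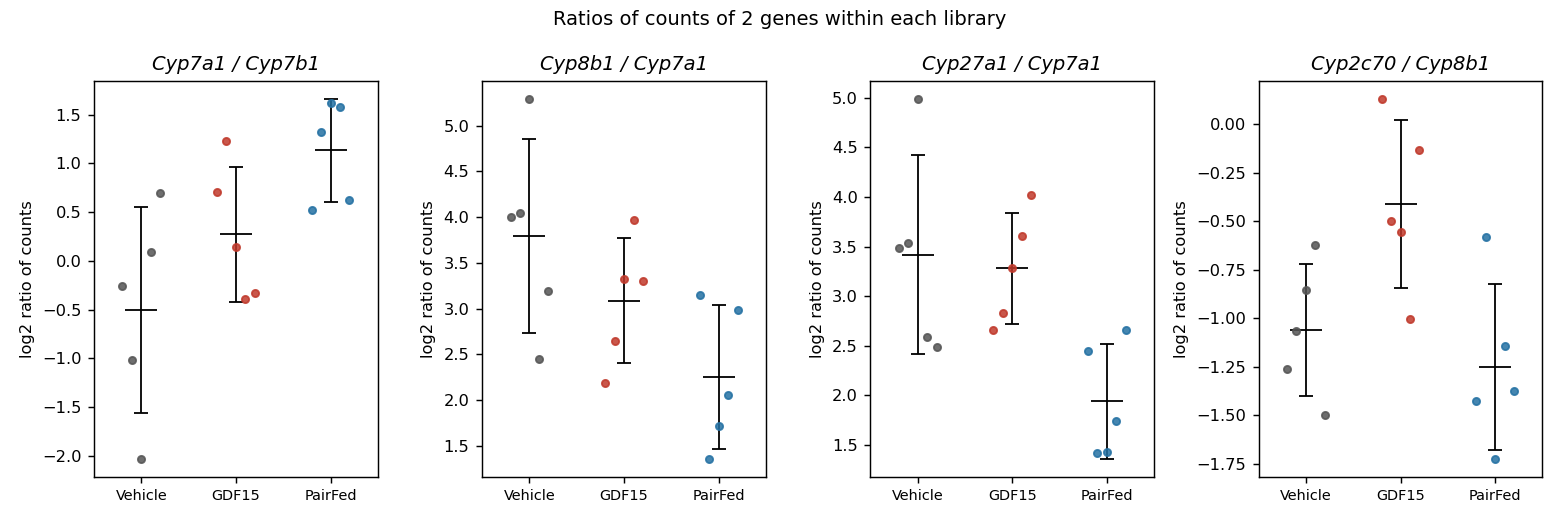
Log2 ratios of the counts of 2 genes within each library; points are libraries, horizontal lines are group means and bars are SD (n = 5), and the axes do not start at 0. The Cyp7a1 to Cyp7b1 ratio has its highest mean in PairFed, 1.14, and the Cyp2c70 to Cyp8b1 ratio has its highest mean in GDF15, -0.41, with overlap between the groups in each panel.

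The 10 genes were followed across the libraries with the group means removed, in 6 pairs. Cyp27a1 and Cyp2c70 had Pearson r = 0.64 (permutation p = 0.0234, adjusted p = 0.0824) and Spearman rho = 0.69 (permutation p = 0.0104, adjusted p = 0.0621) over 15 libraries, and r = 0.63 without the 2 libraries farthest from the Cyp27a1 median. Cyp27a1 and Akr1d1 had r = 0.62 (permutation p = 0.0275, adjusted p = 0.0824) and rho = 0.59 (permutation p = 0.0363, adjusted p = 0.109), which became r = 0.48 (permutation p = 0.124) without the 2 farthest libraries and so rested partly on them. SHP and its targets had r = 0.13 for Cyp7a1 (permutation p = 0.721) and r = 0.37 for Cyp8b1 (permutation p = 0.20). FXR and SHP had r = 0.36 (permutation p = 0.214), and Cyp7a1 and Cyp8b1 had r = 0.08 (permutation p = 0.782). Spearman's rho for these 4 pairs, in the same order, was 0.17, 0.39, 0.40 and -0.0036 (permutation p = 0.593, 0.178, 0.174 and 0.995). No pair passed after adjustment over the 6 pairs. In the 10 shallower and 5 deeper libraries the relations were not recomputed, since the deeper ones hold 4 libraries of 1 group.

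As a description over the 15 libraries, the genes with the most similar pattern to Cyp27a1 among 11247 genes were Ip6k2 (r = 0.95), Cdip1 (r = 0.94) and Slc29a1 (r = 0.94). Slc29a1 was also like Cyp2c70 (r = 0.91), after Pfkfb1 (r = 0.93) and Aspdh (r = 0.92), and like Akr1d1 (r = 0.90), after Anks1 (r = 0.92) and Amy1 (r = 0.91). Cyp7a1 was most like Oxld1 (r = 0.96), Cyp8b1 most like Bmp1 (r = 0.90) and Nr1h4 most like Slc2a8 (r = 0.90). Nr0b2 was most like Depp1 (r = 0.83) and next most like Gdf15 (r = 0.79), the liver's own message of the hormone. Baat was most like Acat3 (r = 0.81) and next most like Hsd3b7 (r = 0.80), while Baat was not among the 3 closest to Hsd3b7. All of these values include the differences between groups and share library and depth.

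Of the other enzymes and carriers of bile acid synthesis, 2 of 16 tested rose and none fell in GDF15 vs Vehicle (median 0.12). None of them passed in PairFed vs Vehicle (median 0.03) and 1 rose in GDF15 vs PairFed (median 0.11). Over all tested genes, 2.02% rose and 0.88% fell in GDF15 vs Vehicle. Those shares were 0.147% and 0.139% in PairFed vs Vehicle, and 0.562% and 0.22% in GDF15 vs PairFed. Cyp39a1, the hydroxylase that acts on an oxysterol made largely in the brain, was 19.9 to 27.2 CPM in Vehicle, 29.3 to 43.4 in GDF15 and 21.9 to 29.2 in PairFed. The lowest GDF15 value was just above the highest of the other groups. It rose by 0.57 ± 0.11 relative to Vehicle (adjusted p = 0.00766 by edgeR) and by 0.52 ± 0.11 relative to PairFed (adjusted p = 0.0344 by edgeR). The call against PairFed was lost without GDF15 1, GDF15 2, PairFed 3, PairFed 4 or PairFed 5 (adjusted p = 0.0822 to 0.114). It was also lost with the 2 groups alone (adjusted p = 0.0534 by edgeR). Abcd3, a peroxisomal transporter that takes up bile acid precursors, rose by 0.31 ± 0.08 relative to Vehicle (adjusted p = 0.0418 by edgeR). That call was lost without Vehicle 1, 3 or 4 or GDF15 1, 2, 3 or 4 (adjusted p = 0.0551 to 0.141). It was also lost with no filter on low counts, a minimum of 10 CPM in 5 libraries or upper-quartile scaling (adjusted p = 0.0503 to 0.0598 by edgeR). The 2 groups alone and the shallower libraries alone gave adjusted p = 0.0956 and 0.155 by edgeR. Against PairFed, Abcd3 had 0.23 ± 0.08 and was not called (adjusted p = 0.196 by edgeR). Slc27a5, which activates bile acids for conjugation, had 0.36 ± 0.10 (adjusted p = 0.0650 by edgeR).

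Of 16 bile acid and sterol transporters tested by edgeR, 0 passed in each of the 3 comparisons, with medians of 0.18, 0.04 and 0.07. At the shares called over all tested genes, a list of 16 would often hold none. Slc10a1, which takes up bile salts from blood, had a log2 value of 0.33 ± 0.15 in GDF15 vs Vehicle (adjusted p = 0.285 by edgeR). Of 27 regulators of Cyp7a1 and Cyp8b1, 3 rose and none fell in GDF15 vs Vehicle (median 0.19), 0 passed in PairFed vs Vehicle (median 0.17) and 1 rose and 1 fell in GDF15 vs PairFed (median 0.04).

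The 3 regulators that rose were Ppargc1a, a fasting-induced coactivator, Foxo1, a forkhead factor restrained by insulin, and Nr1i2, the pregnane X receptor, which binds bile acids. Ppargc1a was 10.5 to 13.9 CPM in Vehicle, 17.8 to 33.5 in GDF15 and 9.74 to 15.8 in PairFed, with GDF15 above both. It rose by 1.02 ± 0.17 relative to Vehicle and by 0.86 ± 0.17 relative to PairFed (adjusted p = 0.00371 and 0.0253 by edgeR), and the second call was lost without GDF15 1, GDF15 2, PairFed 3, PairFed 4 or PairFed 5 (adjusted p = 0.0561 to 0.0784). Foxo1 rose by 0.89 ± 0.15 and Nr1i2 by 0.54 ± 0.11 relative to Vehicle (adjusted p = 0.00573 and 0.0121 by edgeR). Against PairFed, Foxo1 had 0.58 ± 0.15 and Nr1i2 had 0.32 ± 0.11, and neither was called (adjusted p = 0.0985 and 0.189 by edgeR). Bhlhe41, a clock repressor, was 0.83 to 5.35 CPM in Vehicle, 1.46 to 2.16 in GDF15 and 2.96 to 8.90 in PairFed, so that Vehicle spanned the GDF15 range. Relative to Vehicle its log2 value was -0.54 ± 0.42 in GDF15 and 1.37 ± 0.36 in PairFed (adjusted p = 0.564 and 0.0913 by edgeR). It fell by 1.91 ± 0.39 in GDF15 vs PairFed (adjusted p = 0.0344 by edgeR), and limma-voom did not call it (adjusted p = 0.0720). Among the 10 single libraries left out, the call held only without PairFed 1 (adjusted p = 0.0100), the others giving 0.0614 to 0.0999. Hnf4a, which drives many hepatocyte genes, had 0.23 ± 0.06 in GDF15 vs Vehicle without overlap of the groups (adjusted p = 0.0578 by edgeR). The receptor pair for FGF15, Fgfr4 and Klb, and LRH-1, encoded by Nr5a2, had 0.09 ± 0.07, 0.23 ± 0.12 and 0.19 ± 0.09 (adjusted p = 0.527, 0.321 and 0.336 by edgeR).

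The immediate-early covariate and the depth term also bore on the calls in the wider pathway. With the immediate-early covariate, Cyp39a1, Abcd3, Ppargc1a, Foxo1 and Nr1i2 no longer passed in GDF15 vs Vehicle (adjusted p = 0.406 to 0.806 by edgeR), while their values stayed positive at 0.21 to 0.64. With the depth term, Cyp39a1 was 0.50, Ppargc1a was 0.78 and Bhlhe41 was -0.62 in GDF15 vs PairFed, and none passed (adjusted p = 0.376, 0.385 and 0.625 by edgeR).

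**Figure D4:**
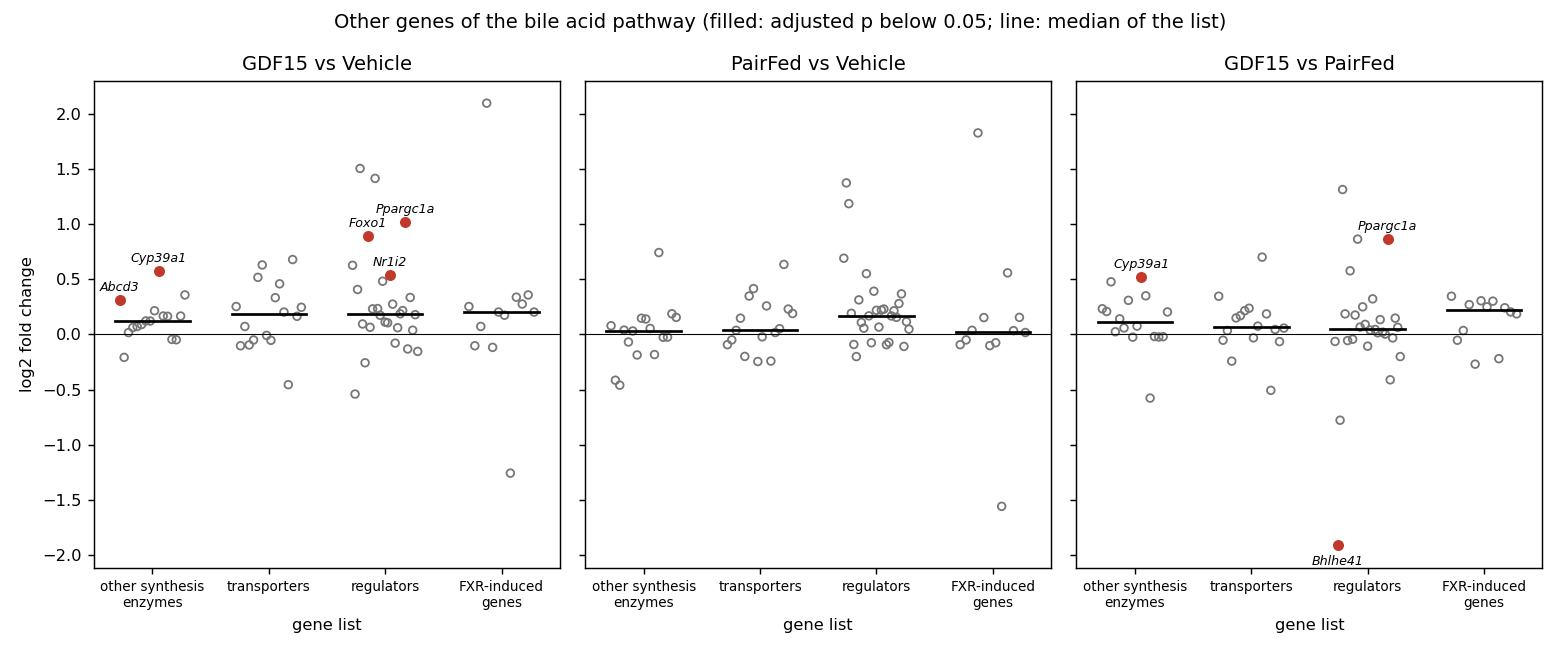
Log2 fold changes of the other genes of the pathway in 4 lists and 3 comparisons; each point is a gene, horizontal lines are list medians, and filled points with names have an adjusted p below 0.05. In GDF15 vs Vehicle 2 synthesis genes and 3 regulators are filled, all above 0, and no transporter or FXR-induced gene is filled in any panel.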

How the data were processed

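The deposited table gives estimated counts in whole numbers for each gene symbol in 15 liver libraries, unscaled for depth. Salmon and DESeq2 are named, without versions or roles, in the submitters' processing notes, with the build mm10; those notes are why the values are read as rounded Salmon estimates. The library kit was directional, per the labels' protocols; how strand was treated and which transcripts were counted is not given in the sources used here. Column names gave each library's group.

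Low counts were removed by filterByExpr (count of 10, total of 15; edgeR 4.0.16 under R 4.3.3), a step that kept 99.92% of the counts. TMM factors scaled the libraries, and 1 quasi-likelihood model of the 15 libraries with robust estimation was fitted, with group as its only term. Benjamini-Hochberg adjustment ran over the 12274 genes, with calls below 0.05. SE were derived from the F statistic, intervals from the t distribution at 95%, and CPM from the TMM-scaled totals. Levels per kb used the longest protein-coding transcript of GENCODE on GRCm38. Ratios were compared by two-sided exact permutation over libraries, after 0.5 was added to each count, and correlations by 100000 permutations within groups (SciPy 1.17.1). The labels name no batch and do not say outright that each library is a separate animal, so p-values measure the spread between libraries.

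The 10 genes, the lists and the tests were chosen with earlier results of these data known. Genes named from other lists were those past the threshold and the 2 most abundant of each; Abcb11, Slc10a1, Fgfr4, Klb and Nr5a2 were added for their roles and Fkbp5 as a glucocorticoid-induced gene. Likeness was ranked over genes whose log2 CPM averaged 1 or more, and the 3 closest are named. Alternatives were other scalings, filters and tests (DESeq2 1.42.0, limma 3.58.1), 2 groups alone, a depth term, the shallower libraries alone, the immediate-early score as a covariate, and each library left out. On simulated counts of 12180 genes, 56.7% of genes changed by 0.5 on the log2 scale were recovered for GDF15 vs Vehicle. Recovery was 87.3% at 1 and 98.5% at 2, with 11 false calls among 173. The simulated counts were drawn independently, with changes in GDF15 alone and no effect of depth or immediate-early genes. These rates may therefore not hold for the libraries studied.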

Additional observations from a re-analysis of the deposited data

Results flagged for a closer look

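Of the 42 sets of 5 libraries examined, 1 held a library far from the others. Baat, the enzyme that conjugates bile acids, was at 184.2 CPM in Vehicle 3, while the other 4 Vehicle libraries were within 229 to 246 CPM. The gap to the nearest of them was 0.728 of the group's range, above Dixon's limit of 0.71 for 5 samples. Chance alone gives such a gap in about 1 in 20 sets. Vehicle 3 was also the lowest Vehicle library for Cyp7a1, Hsd3b7 and Nr1h4.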

How the results depend on the processing

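Of 580 alternative values of the 10 genes, 500 kept their direction and their side of the threshold, 35 lost a call, 1 gained one and 44 changed sign; where no value or construction is named, the cause was not tested. The calls among the 10 genes in GDF15 vs Vehicle went from 3 to 1 with no filter on low counts, to 1 with a term for the deeper libraries, to 0 with the immediate-early covariate and to between 1 and 3 with 1 library left out. In GDF15 vs PairFed they went from 2 to 1 with no filter, to 1 with the 2 groups alone, to 0 with the depth term, to 1 with the immediate-early covariate and to between 1 and 2 with 1 library left out. In PairFed vs Vehicle they were 0 in every alternative run. Over all genes, the 356 calls of GDF15 vs Vehicle became 642 with DESeq2's Wald test, 194 with the 2 groups alone, 160 in the shallower libraries, 9 with the immediate-early covariate and 134 to 476 with 1 library left out. The 35 calls of PairFed vs Vehicle became 339 with DESeq2's Wald test, 0 with the depth term, 0 with the immediate-early covariate and 0 to 135 with 1 library left out. The 96 calls of GDF15 vs PairFed became 259 with DESeq2's Wald test, 9 with the depth term, 55 with the immediate-early covariate and 21 to 171 with 1 library left out. The share of calls that were higher moved from 69.7% to 58.7% in GDF15 vs Vehicle and from 51.4% to 32.5% in PairFed vs Vehicle with upper-quartile scaling, and the latter to 38.5% with a minimum of 10 CPM in 5 libraries. In GDF15 vs PairFed it moved from 71.9% to 59.5% with DESeq2's Wald test.

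The sign changes were all of values that did not pass the test. In GDF15 vs Vehicle, the immediate-early covariate gave -0.136 for Cyp8b1, -0.0553 for Hsd3b7, -0.0454 for Abcc2, -0.0479 for Klb, -0.0287 for Nr5a2 and -0.0286 for Slco1b2. Upper-quartile scaling gave -0.00452 for Cyp8b1 and -0.0195 for Hsd3b7, the 10 CPM minimum gave -0.0104 for Hsd3b7, the depth term gave -0.0818 for Cyp8b1, and the shallower libraries gave 0.00863 for Cyp7b1, -0.0617 for Cyp8b1 and 0.00999 for Bhlhe41. In PairFed vs Vehicle, Cyp8b1 was -0.00125 with DESeq2 size factors, -0.0262 with upper-quartile scaling, -0.0209 with the 10 CPM minimum, -0.00118 with DESeq2's Wald test, -0.0128 with limma-voom, -0.000502 with the 2 groups alone and -0.117 with the immediate-early covariate. That covariate also gave -0.0823 for Cyp27a1, -0.00367 for Akr1d1, -0.0289 for Abcc2, -0.0878 for Cyp39a1 and -0.0564 for Ppargc1a, and the depth term gave 0.0274 for Abcb11, 0.0032 for Fgfr4 and 0.0473 for Scp2. In GDF15 vs PairFed, that covariate gave -0.0144 for Cyp7b1, -0.0189 for Cyp8b1, -0.0165 for Abcc2, -0.0493 for Klb, -0.0727 for Nr5a2 and -0.0203 for Slc10a1. There the depth term gave -0.436 for Cyp8b1, -0.0678 for Abcc2, -0.157 for Klb, 0.207 for Rxra and 0.0984 for Slco1b2.

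With 1 library left out, values that crossed 0 ran in GDF15 vs Vehicle from -0.187 to 0.0574 for Cyp7b1, -0.0835 to 0.15 for Cyp8b1, -0.0201 to 0.0558 for Hsd3b7, -0.755 to 0.0140 for Bhlhe41 and -0.370 to 0.254 for the log2 ratio of Cyp27a1 to Cyp7a1. In PairFed vs Vehicle they ran from -0.236 to 0.00847 for Cyp7b1, -0.187 to 0.111 for Cyp8b1, -0.00564 to 0.116 for Cyp27a1, -0.0141 to 0.115 for Abcc2, -0.0133 to 0.1004 for Cyp39a1 and -0.0625 to 0.00251 for Scp2. In GDF15 vs PairFed they ran from -0.0632 to 0.149 for Cyp7b1, -0.0780 to 0.2203 for Cyp8b1, -0.00578 to 0.0722 for Baat, -0.0218 to 0.0934 for Abcc2, -0.0226 to 0.154 for Klb, -0.0327 to 0.0923 for Nr5a2, -0.0743 to 0.0189 for Rxra and -0.0152 to 0.141 for Slc10a1. With the group means kept, r was -0.0746 for Nr0b2 and Cyp7a1 and -0.104 for Nr1h4 and Nr0b2; without the 2 farthest libraries, r was -0.227 for Cyp7a1 and Cyp8b1. The shallower libraries alone were compared for GDF15 vs Vehicle only, since 1 PairFed library was among them. No paired analysis was possible because the labels tie no PairFed mouse to a GDF15 mouse.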

Other observations

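Within a group, single libraries often stood at the same end for several of the 10 genes. GDF15 5 was the lowest GDF15 library for 8 of the 10, all but Cyp7b1 and Cyp27a1. PairFed 1, the shallowest PairFed library, was the highest PairFed library for 5 of the 10: Cyp8b1 at 682 CPM, Cyp27a1 at 417, Cyp2c70 at 254, Akr1d1 at 175 and Baat at 222.

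Bile duct markers, whose cells modify bile downstream of the hepatocytes, had 10 of 12 tested. None passed in GDF15 vs Vehicle (median -0.21) and 1 fell in PairFed vs Vehicle (median -0.54), where 0.139% of all tested genes fell. Markers of T, B and NK cells had 7 of 12 tested, of which 2 fell in GDF15 vs Vehicle (median -1.36), at a summed 5.10 to 7.11 CPM in GDF15 and 8.67 to 26.9 in Vehicle. In GDF15 vs Vehicle, edgeR called 0 of 14 Kupffer cell and macrophage markers, 0 of 12 stellate cell markers and 0 of 12 sinusoidal endothelial markers. Their medians were -0.18, -0.40 and 0.04, with 10, 11 and 5 values negative. Of all 12274 tested genes, 2.02% rose, 0.88% fell and 6277 were negative in that comparison. At these shares, lists of this size would often hold no call. Hepatocyte markers had 1 of 13 higher in that comparison, with a median of 0.21. In GDF15 vs PairFed, edgeR called none of the bile duct, T, B and NK cell, macrophage, stellate or endothelial markers. Over all tested genes, 0.562% rose and 0.22% fell there. The medians there were 0.49 for bile duct (3 of 10 negative) and 0.15 for macrophages (1 of 14 negative). For T, B and NK cells the median was -0.70 (7 of 7 negative). Stellate cells had -0.12 and endothelium had -0.42, with 11 of 12 negative in each. Of all 12274 tested genes, 6114 were negative there. In PairFed vs Vehicle the endothelial median was 0.38 (12 of 12 positive). The part of these markers in the results was not tested.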
